A study of Mus musculus with 4 samples.

Results

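The calcineurin, NFAT and CaMKII genes are 10 genes that carry calcium signals in the heart muscle cell. They were chosen by name: the calcineurin inhibitor Rcan1, the calcineurin subunits Ppp3ca, Ppp3cb and Ppp3r1, the transcription factors Nfatc1, Nfatc2, Nfatc3 and Nfatc4, and the kinase genes Camk2d and Camk2g. All 10 were found among the 23631 genes of a table of promoter read counts, and all 10 passed a minimum mean count of 10, as did 22835 genes in all. Reads came from chromatin immunoprecipitation of left ventricle with an antibody against acetylated histone H3, a mark of active chromatin. There were 4 groups of C57BL6 males, 10 to 12 weeks old, with 1 library each. The TAC TSA and TAC Veh groups had transverse aortic constriction, a surgery that loads the ventricle with pressure. The Sham TSA and Sham Veh groups had the sham operation. TSA is trichostatin A, an inhibitor of histone deacetylases, injected under the skin for 4 weeks at 0.6 mg/kg/day in DMSO, and Veh is DMSO alone. How many animals stand behind a library is not stated in the labels, and ventricle tissue holds many cell types besides muscle cells.

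Calcineurin is a phosphatase that is switched on by calcium and calmodulin. It removes phosphate from NFAT proteins, which then enter the nucleus and, with partners such as GATA4, switch on genes of hypertrophic growth. Rcan1 binds and restrains calcineurin, and one of its promoters is itself driven by NFAT, so that its transcript is widely read as a gauge of calcineurin activity. CaMKII is a kinase that is also switched on by calcium and calmodulin. It phosphorylates the channels and pumps of the muscle cell and class IIa histone deacetylases, which releases the transcription factor MEF2.

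Rcan1 and Nfatc2 are shown as sequence because their RefSeq IDs carry different counts in the table and RefSeq gives each gene more than one start. The 250 bases before each start, from RefSeq (GRCm38.p6), are given below in lower case, with the core bound by NFAT, GGAAA or its reverse complement TTTCC, in capitals. The Rcan1 starts lie 66.1 kb apart and those of Nfatc2 11.3 kb apart.
Rcan1 upstream start, chr16:92466170-92466419, minus strand: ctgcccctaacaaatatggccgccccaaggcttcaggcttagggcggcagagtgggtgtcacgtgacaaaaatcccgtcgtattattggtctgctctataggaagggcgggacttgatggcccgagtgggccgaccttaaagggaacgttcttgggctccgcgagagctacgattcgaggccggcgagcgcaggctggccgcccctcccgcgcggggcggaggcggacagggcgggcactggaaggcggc
Rcan1 downstream start, chr16:92400079-92400328, minus strand: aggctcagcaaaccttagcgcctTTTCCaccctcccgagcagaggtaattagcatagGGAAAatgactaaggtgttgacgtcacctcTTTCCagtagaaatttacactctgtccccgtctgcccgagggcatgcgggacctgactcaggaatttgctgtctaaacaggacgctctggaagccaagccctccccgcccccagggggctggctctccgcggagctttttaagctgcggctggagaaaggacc
Nfatc2 upstream start, chr2:168601658-168601907, minus strand: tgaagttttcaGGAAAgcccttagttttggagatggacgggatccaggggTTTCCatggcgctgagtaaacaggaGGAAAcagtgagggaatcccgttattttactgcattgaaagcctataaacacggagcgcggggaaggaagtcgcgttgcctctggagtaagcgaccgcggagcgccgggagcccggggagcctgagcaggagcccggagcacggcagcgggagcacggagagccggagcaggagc
Nfatc2 downstream start, chr2:168590366-168590615, minus strand: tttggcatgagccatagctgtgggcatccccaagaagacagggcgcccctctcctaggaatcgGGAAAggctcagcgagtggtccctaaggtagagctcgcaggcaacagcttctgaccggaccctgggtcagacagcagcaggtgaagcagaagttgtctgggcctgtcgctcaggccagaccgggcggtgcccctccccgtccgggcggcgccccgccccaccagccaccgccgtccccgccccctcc
The downstream Rcan1 window held 3 cores and the upstream window 0. The upstream Nfatc2 window held 3 and the downstream window 1. Over all 32851 RefSeq windows of this length, 55.6% held at least 1 core on either strand, and 7 of the 10 windows found for 7 members did, so the motif is common and a match is no sign of a bound site. No window was used for Ppp3ca, Nfatc1 and Camk2g. The table of counts names windows by transcript only, and neither the mm9 position nor the length of a window is stated in the labels or the file. A count is therefore not assigned to either of these starts, and levels are not compared between genes.

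Total promoter counts ranged from 6842296 in TAC TSA to 9905553 in Sham TSA. Scaling used trimmed means of M-values (TMM), which set the bulk of promoters level, so each ratio below is relative to that bulk. The promoters of 1274 olfactory or vomeronasal receptor genes, whose use in heart was not tested, were looked at as another base for scaling. Their median log2 ratios were 0.29 for TAC Veh over Sham Veh and 0.41 for TAC TSA over TAC Veh. They were 0.67 for TAC TSA over Sham TSA and 0.07 for Sham TSA over Sham Veh. Scaling on these receptors instead shifted the median of all genes by −0.24, −0.38, −0.61 and −0.02 in the same comparisons. Only the sham labels point to a previous submission, so surgery and a possible difference in when libraries were made cannot be told apart.

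Relative to the bulk of promoters, those of this pathway differed little between the 4 libraries, as did most genes of like count. No member was apart in any of the 4 comparisons, where apart means a ratio of at least 1.5-fold whose exact 95% interval for counting error excludes 1. Of all genes, 2.51% were apart in TAC Veh over Sham Veh, 4.40% for TAC TSA over TAC Veh, 7.40% for TAC TSA over Sham TSA and 1.16% for Sham TSA over Sham Veh. Among the 8121 genes whose mean count lay in the members' range, 348 to 874, a range taken from the members' counts, 20, 42, 5 and 2 genes were apart (0.246%, 0.517%, 0.0616% and 0.0246%). Every member's interval lay wholly inside 1.5-fold (0.58 on the log2 scale) in every comparison, as it did for 96.9% to 99.8% of genes in that range. These intervals compare 2 libraries, hold no biological spread and treat PCR reads as independent. In whole ventricle, fewer cells of a type and less acetylation per cell cannot be told apart. With receptor scaling the result was different: 3 members (Rcan1, Ppp3cb and Nfatc4) were apart and lower in TAC TSA than in TAC Veh, and all 10 were apart and lower in TAC TSA than in Sham TSA. That scaling moves the whole table, and 14.3% and 52.1% of all genes were lower by the same measure.

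**Figure D1:**
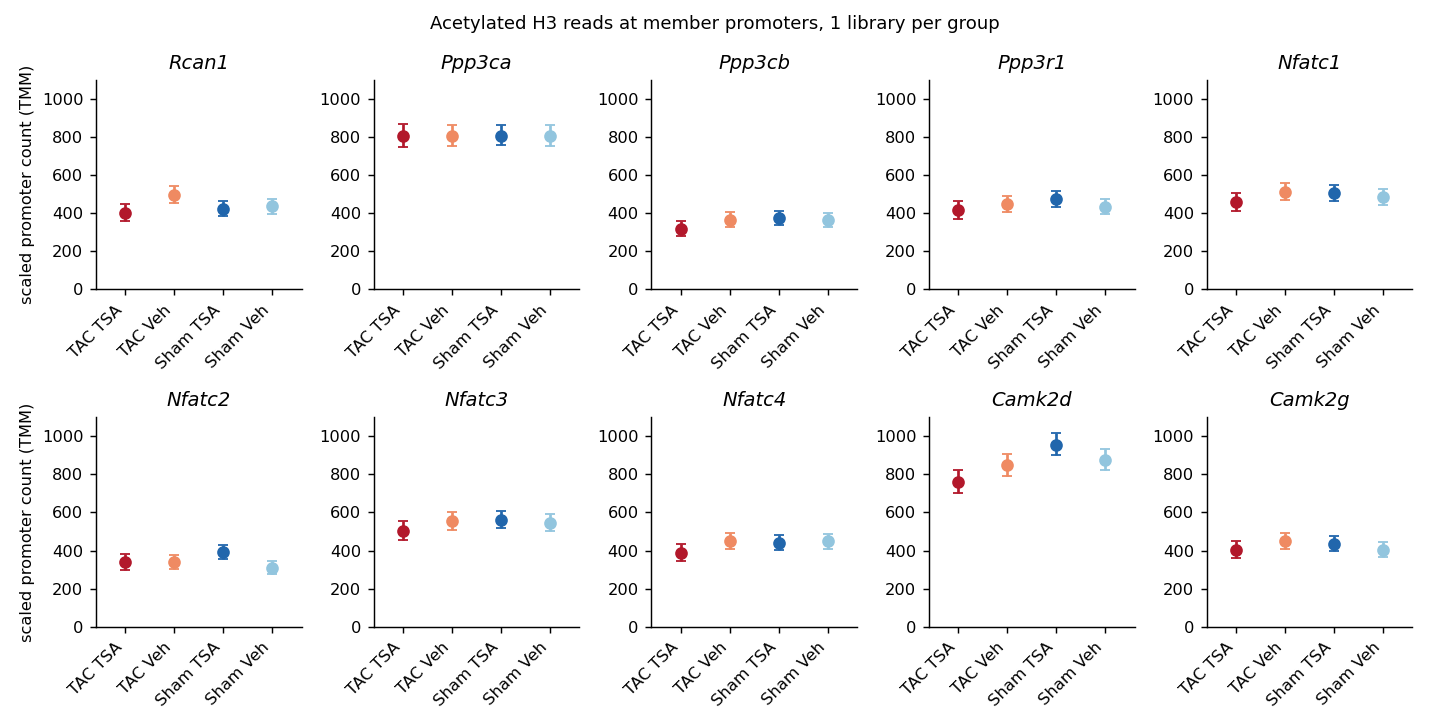
TMM-scaled promoter counts of the 10 genes (vertical axis, from 0) in the TAC TSA, TAC Veh, Sham TSA and Sham Veh libraries (horizontal axis). Points are single libraries and bars exact Poisson 95% intervals for counting error. Ppp3ca is level across the libraries, Rcan1 is highest in TAC Veh, and Camk2d is highest in Sham TSA and lowest in TAC TSA.

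Rcan1, the inhibitor, had 326 reads in TAC TSA, 507 in TAC Veh, 469 in Sham TSA and 474 in Sham Veh at NM_019466, its ID with the highest mean count. After scaling these were 403, 497, 422 and 435, so TAC Veh stood highest and TAC TSA lowest. The log2 ratio was 0.19 (95% interval 0.01 to 0.37) for TAC Veh over Sham Veh, a 1.14-fold difference. It was −0.30 (−0.51 to −0.10) for TAC TSA over TAC Veh, where TAC Veh was 1.23-fold higher. These ratios share the TAC Veh library and are not independent. It was −0.07 (−0.27 to 0.14) for TAC TSA over Sham TSA, and −0.05 (−0.23 to 0.14) for Sham TSA over Sham Veh. With receptor scaling the ratio of TAC Veh over Sham Veh was −0.05 (−0.23 to 0.13), so its direction depends on the scaling.

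The other Rcan1 ID, NM_001081549, had 324 reads in TAC TSA, 420 in TAC Veh, 505 in Sham TSA and 463 in Sham Veh. Here TAC Veh was not the highest library. The log2 ratios were −0.05 (−0.24 to 0.15) for TAC Veh over Sham Veh and −0.04 (−0.25 to 0.17) for TAC TSA over TAC Veh. A share of reads between the 2 IDs needs no scaling between libraries. NM_019466 held 50.2% of the pair's reads in TAC TSA (exact binomial 95% interval 46.2 to 54.1) and 54.7% in TAC Veh (51.4 to 57.9). It held 48.2% in Sham TSA (44.97 to 51.3) and 50.6% in Sham Veh (47.3 to 53.8). The share was highest in TAC Veh, whose interval overlapped those of TAC TSA and Sham Veh but lay just above that of Sham TSA. Such shares were not computed over all genes with several IDs. How common a gap of this size is was therefore not tested, and no change of promoter is read from it.

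The catalytic calcineurin subunit Ppp3ca had 652 reads in TAC TSA, 822 in TAC Veh, 898 in Sham TSA and 877 in Sham Veh. Scaled, the values were 806, 805, 807 and 806, a range of 0.00 on the log2 scale and the narrowest of the 10 genes. The other catalytic subunit, Ppp3cb, had 257, 373, 416 and 395 reads in TAC TSA, TAC Veh, Sham TSA and Sham Veh, with scaled counts of 318, 365, 374 and 363. Its TAC TSA library stood below the other libraries, which lay close together. The log2 ratio was −0.24 (−0.47 to −0.01) for TAC TSA over Sham TSA and −0.20 (−0.44 to 0.03) for TAC TSA over TAC Veh. For TAC TSA over Sham TSA the interval held 0 with loess scaling (−0.13, −0.36 to 0.10), total counts (−0.16, −0.39 to 0.06) and DESeq2 size factors (−0.22, −0.45 to 0.004). A start of the gene 1810062O18Rik lies 280 bases from that of Ppp3cb in RefSeq, so reads may be shared. Ppp3r1, the calcium-binding regulatory subunit, had 336, 458, 526 and 473 reads in the same order. Its log2 ratios ran from −0.19 (−0.39 to 0.01) for TAC TSA over Sham TSA to 0.12 (−0.06 to 0.30) for Sham TSA over Sham Veh, and all 4 of its intervals held 0.

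NFAT family members were likewise close between libraries, and Nfatc2 ranged most. Nfatc2, known best from T cells, had 274 reads in TAC TSA, 347 in TAC Veh, 434 in Sham TSA and 337 in Sham Veh at NM_001136073. Sham TSA stood highest and Sham Veh lowest, with scaled counts of 390 and 310. The log2 ratio of Sham TSA over Sham Veh was 0.33 (0.12 to 0.54), a 1.26-fold difference, and that of TAC TSA over TAC Veh was −0.01 (−0.24 to 0.23). The IDs NM_010899 and NM_001037177 gave nearly the same reads. The fourth ID, NM_001037178, had 254, 267, 311 and 302 reads in TAC TSA, TAC Veh, Sham TSA and Sham Veh. Its log2 ratio was 0.01 (−0.22 to 0.24) for Sham TSA over Sham Veh and 0.26 (0.01 to 0.52) for TAC TSA over TAC Veh. The higher value in Sham TSA was thus seen at 3 of the 4 IDs, whose near-equal counts are not separate measurements. NM_001136073 held 51.9% of the reads of the pair with NM_001037178 in TAC TSA (47.5 to 56.2), 56.5% in TAC Veh (52.5 to 60.5), 58.3% in Sham TSA (54.6 to 61.8) and 52.7% in Sham Veh (48.8 to 56.7).

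Nfatc1, which acts in heart valve endothelium and T cells, had 371 reads in TAC TSA, 523 in TAC Veh, 563 in Sham TSA and 527 in Sham Veh at 3 of its 6 IDs. The other 3 IDs had 352, 542, 539 and 514. At these the log2 ratio of TAC TSA over TAC Veh was −0.29 (−0.48 to −0.09), against −0.16 (−0.36 to 0.03) at the IDs with the higher mean count. The share of reads at NM_198429 in the pair with NM_016791 was 48.7% in TAC TSA (44.99 to 52.4), 50.9% in TAC Veh (47.8 to 53.9), 48.9% in Sham TSA (45.9 to 51.9) and 49.4% in Sham Veh (46.3 to 52.5), so the intervals of all 4 libraries overlap.

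**Figure D2:**
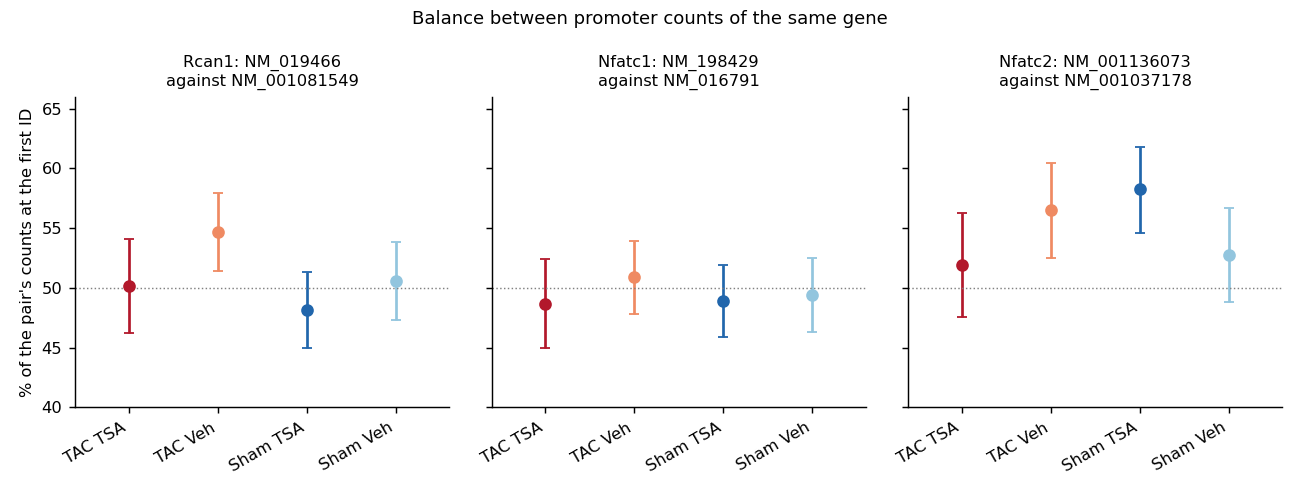
Share of reads at one RefSeq ID among the reads of a pair of IDs of the same gene (vertical axis, percent, drawn from 40 to 66) in the 4 libraries (horizontal axis), with exact binomial 95% intervals. The Rcan1 share is highest in TAC Veh at 54.7% and the Nfatc2 share in Sham TSA at 58.3%, while the Nfatc1 shares lie between 48.7% and 50.9%.

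In mouse studies loss of Nfatc3 blunts hypertrophy, and an active form of Nfatc4 drives it. Nfatc3 had 408, 564, 623 and 595 reads in TAC TSA, TAC Veh, Sham TSA and Sham Veh, and all 4 of its intervals held 0. Nfatc4 had 313, 458, 489 and 487 reads in the same order. Its log2 ratio was −0.21 (−0.43 to −0.003) for TAC TSA over TAC Veh, an interval that only just excludes 0. It held 0 with loess scaling (−0.14, −0.35 to 0.08), total counts and DESeq2 size factors. In TAC Veh over Sham Veh the ratios were 0.02 (−0.15 to 0.18) for Nfatc3 and 0.00 (−0.18 to 0.19) for Nfatc4.

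Camk2d encodes CaMKII delta, the main form in heart. It had 615 reads in TAC TSA, 864 in TAC Veh, 1063 in Sham TSA and 953 in Sham Veh. Scaled counts were 760, 846, 955 and 876, so TAC TSA was lowest and Sham TSA highest. The log2 ratio of TAC TSA over Sham TSA was −0.33 (−0.48 to −0.19), with Sham TSA 1.26-fold higher. It was −0.20 (−0.35 to −0.06) with loess scaling on mean count. It was −0.15 (−0.31 to −0.004) for TAC TSA over TAC Veh, and −0.09 (−0.24 to 0.06) with loess scaling. In TAC Veh over Sham Veh it was −0.05 (−0.18 to 0.09) and in Sham TSA over Sham Veh 0.13 (−0.001 to 0.25). Camk2g, the gamma form, had 325, 459, 484 and 441 reads in TAC TSA, TAC Veh, Sham TSA and Sham Veh. Scaled counts were 402, 450, 435 and 405, so TAC Veh was highest. Its log2 ratios were 0.15 (−0.04 to 0.34) for TAC Veh over Sham Veh and −0.16 (−0.37 to 0.05) for TAC TSA over TAC Veh, and all 4 of its intervals held 0.

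**Figure D3:**
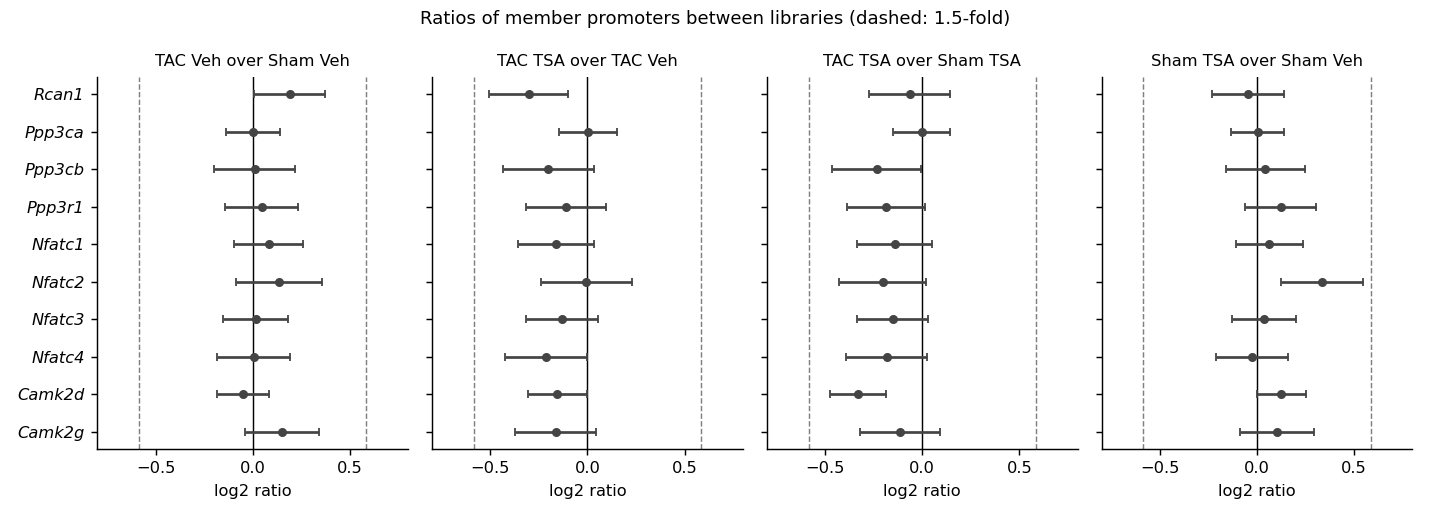
Log2 ratio of TMM-scaled counts (horizontal axis) for the 10 genes (vertical axis) in 4 comparisons of single libraries. Points are ratios, bars exact 95% intervals for counting error and dashed lines 1.5-fold, and no interval reaches a dashed line.

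Counted by intervals that exclude 0, 1 of the 10 members was higher in TAC Veh than in Sham Veh (Rcan1; 5.82% of all genes were higher by this measure). Those lower in TAC TSA over TAC Veh numbered 3 (Rcan1, Nfatc4 and Camk2d; 10.4% of all genes, and 19.9% of those in the members' count range). Those lower in TAC TSA over Sham TSA numbered 2 (Ppp3cb and Camk2d; 13.8% and 29.0%). In Sham TSA over Sham Veh 1 was higher (Nfatc2; 5.20% and 6.91%). With DESeq2 size factors, loess and total counts, 1 member was lower in TAC TSA over TAC Veh (Rcan1) and 1 in TAC TSA over Sham TSA (Camk2d), while with receptor scaling all 10 were in both. Nothing particular to the 10 genes is read from these counts. TAC TSA was the lowest library for 8 of the 10 members after TMM scaling, and genes of like count also leaned that way. The members' median log2 ratio was −0.17 for TAC TSA over Sham TSA, beside −0.13 for genes in their count range and −0.01 for all genes. For TAC TSA over TAC Veh these medians were −0.16, −0.08 and 0.00. With loess scaling, which levels the ratios over the range of counts, the members' medians were −0.05 and −0.08. The members' medians were 0.03 for TAC Veh over Sham Veh and 0.05 for Sham TSA over Sham Veh. With receptor scaling the members' medians were −0.21 for TAC Veh over Sham Veh, −0.54 for TAC TSA over TAC Veh, −0.76 for TAC TSA over Sham TSA and 0.02 for Sham TSA over Sham Veh.

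The difference of the surgery ratios, TSA minus vehicle, was taken at the ID with the highest mean count. It was negative for all 10 members with TMM scaling, beside 70.8% of genes in their count range. It was negative for 9 members with loess scaling, beside 50.7%, for 9 with total counts, beside 60.7%, and for 9 with DESeq2 size factors, beside 68.9%. With receptor scaling it was negative for 10 members and 98.5% of those genes. The signs of the 10 members come from the same 4 libraries and are not replicates of one another. No difference across the pathway is therefore read from them. With TMM scaling the median difference was −0.24, beside −0.09 for genes in the members' count range and −0.01 for all genes. With loess scaling the median was −0.15 for the members and 0.00 for both others. The 95% Wald interval for counting error excluded 0 for Nfatc2 (−0.34, −0.65 to −0.03) and Camk2d (−0.28, −0.48 to −0.09). At the Nfatc2 ID NM_001037178 the sign was the opposite, with surgery ratios of 0.17 with TSA and −0.09 with vehicle. An interval below 0 was found for 9.14% of all genes and 16.5% of genes in the members' count range, so 2 of 10 is near the background. Of all genes 16.2% had one that excluded 0 in either direction. The value for Rcan1 was −0.25 (−0.53 to 0.02).

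The only test the design allows fits surgery and drug as additive terms over the 4 libraries (quasi-likelihood test in edgeR, adjusted over all genes). It called 0 of the 10 members for TSA, where 0.215% of all genes were called, and 0 for surgery, where 0.0350% were. At an unadjusted p under 0.05 there were 0 members for TSA and 1 for surgery, Camk2d, with a log2 fold change of −0.19 and an adjusted p of 0.48 in edgeR. Of all genes 4.27% for TSA and 9.32% for surgery were under that p. DESeq2 and limma-voom also called 0 members. For Rcan1 the log2 fold change with TSA was −0.17 and that with surgery 0.07 (adjusted p of 1.00 and 0.86 in edgeR). The fit has 1 residual degree of freedom, which is the interaction, so it does not test whether the drug acted differently after surgery. Its spread is that departure from additivity, pooled over genes, and no replicate enters it.

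Rcan1 shared its profile with many promoters. The nearest non-members with a mean count of at least 100, by distance between centred log2 scaled counts over 4 libraries, were Plxnc1, Wdr55, 4930426L09Rik, Pip4k2a and Vma21, at distances of 0.02. Plxnc1, for example, had 211 reads in TAC TSA, 330 in TAC Veh, 309 in Sham TSA and 308 in Sham Veh. Of 15659 candidates 498 lay within 0.1 of Rcan1. For Nfatc2, the member with the widest range, the nearest were Lpar4 (0.02), Sema3c (0.02), Lztr1 (0.03), Actr6 (0.04) and Tmem29 (0.04), and 133 lay within 0.1.

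The rest of the pathway was listed in 4 groups with 61 genes in all. With TMM scaling none of these was apart in TAC Veh over Sham Veh. There were 2 apart and higher in TAC TSA over TAC Veh, 1 higher in TAC TSA over Sham TSA, and 1 lower in Sham TSA over Sham Veh. The shares of all genes in those directions were 4.06%, 7.20% and 0.582%. Medians over the 61 were −0.01 for TAC Veh over Sham Veh, −0.06 for TAC TSA over TAC Veh, −0.10 for TAC TSA over Sham TSA and 0.01 for Sham TSA over Sham Veh. The additive fit called 0 genes of these lists. With receptor scaling 9 of 13 calcineurin genes, 11 of 14 NFAT partners, 11 of 16 kinases and calmodulins and 14 of 18 calcium genes were apart and lower in TAC TSA than in Sham TSA, beside the 52.1% of all genes given above.

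Among the 13 other calcineurin subunits, inhibitors and anchors none was apart with TMM scaling, which also gave the ratios below. With receptor scaling 2 were apart and lower in TAC Veh over Sham Veh and 4 in TAC TSA over TAC Veh. By that measure 3.77% and 14.3% of all genes were lower. Myoz2, calsarcin-1, which tethers calcineurin at the Z-disc and restrains it, had 180 reads in TAC TSA, 159 in TAC Veh, 188 in Sham TSA and 238 in Sham Veh. Its log2 ratio was −0.49 (−0.79 to −0.19) for TAC Veh over Sham Veh, the lowest of the list, and 0.51 (0.20 to 0.83) for TAC TSA over TAC Veh. The anchor Akap6 was highest in TAC TSA over TAC Veh at 0.58 (0.10 to 1.05), just short of 1.5-fold. Rcan2, a relative of Rcan1 that was singled out after its values were seen, was at −0.25 (−0.47 to −0.04) for TAC Veh over Sham Veh and 0.43 (0.21 to 0.66) for TAC TSA over TAC Veh. Rcan3 was the lowest of the list in TAC TSA over TAC Veh, at −0.30 (−0.52 to −0.07). Cabin1, a calcineurin-binding inhibitor, was lowest in TAC TSA over Sham TSA at −0.41 (−0.63 to −0.20), where Akap6 was highest at 0.49. The testis-type catalytic subunit Ppp3cc was highest in TAC Veh over Sham Veh at 0.18. For Sham TSA over Sham Veh the list ran from −0.38 for the regulatory subunit Ppp3r2 to 0.27 for Myoz1, a calsarcin of skeletal muscle.

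Of 14 NFAT kinases and partners with Nfat5, Mef2c was the member apart, on few reads. It had 40 in TAC TSA, 42 in TAC Veh, 32 in Sham TSA and 50 in Sham Veh. The ratio was 0.78 (0.07 to 1.499) for TAC TSA over Sham TSA and −0.68 (−1.36 to −0.01) for Sham TSA over Sham Veh, and both rest on the low Sham TSA count. With loess scaling no gene of the list was apart in TAC TSA over Sham TSA. Nfat5, the calcineurin-independent relative, was highest of the list in TAC Veh over Sham Veh (0.20, 0.01 to 0.39). Gata4, the NFAT partner, was at −0.03 (−0.18 to 0.12) there, and was the lowest of the list in TAC TSA over Sham TSA at −0.24.

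Of 16 other calmodulin kinases, calmodulins and regulators, Pnck and Camk2b were apart in TAC TSA over TAC Veh, with TAC TSA higher. Of all genes 4.06% were apart in that direction. Pnck, a calmodulin kinase I relative, had 118 reads in TAC TSA, 82 in TAC Veh, 128 in Sham TSA and 118 in Sham Veh, so TAC Veh was the low library. Its ratio was 0.86 (0.44 to 1.29). Camk2b, the beta form of CaMKII, had 110, 92, 102 and 96 reads in the same order and a ratio of 0.59 (0.18 to 1.01). With loess scaling 1 gene of the list was apart in that comparison. With receptor scaling 3 were, all lower in TAC TSA, beside 14.3% of all genes. Camk2a, the alpha form known from brain, was lowest in TAC Veh over Sham Veh at −0.44 (−0.71 to −0.18), and Camk4 highest at 0.46 (0.11 to 0.82).

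Of 18 genes of calcium entry and release upstream, none was apart with TMM scaling, which also gave the ratios below. With receptor scaling 4 were apart and lower in TAC TSA over TAC Veh, beside 14.3% of all genes. Plcb1, the phospholipase C that acts below Gq-coupled receptors, was lowest in TAC Veh over Sham Veh at −0.30 (−0.52 to −0.08). Trpc6, a channel gene that NFAT activates, was at 0.19 (−0.25 to 0.63) there on 92 reads in TAC Veh and 86 in Sham Veh, and was the lowest in Sham TSA over Sham Veh at −0.35 (−0.83 to 0.12). Agtr1a, an angiotensin II receptor, was highest in TAC TSA over TAC Veh at 0.34 and in Sham TSA over Sham Veh at 0.45. It was lowest in TAC TSA over Sham TSA at −0.28, where the channel gene Trpc4 was highest at 0.44.

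Larger ratios were found at promoters of proteins that CaMKII phosphorylates in heart. Of 13 such genes 3 were apart and lower in TAC Veh than in Sham Veh, and 6 were apart in TAC TSA over TAC Veh, all with higher values in TAC TSA. The shares of all genes in those directions were 0.582% and 4.06%. Medians were −0.35 and 0.58, beside medians of all genes of 0.00 in both, and these comparisons share the TAC Veh library. The L-type calcium channel Cacna1c had 319 reads in TAC TSA, 222 in TAC Veh, 451 in Sham TSA and 392 in Sham Veh. Its ratios were −0.73 (−0.97 to −0.49) for TAC Veh over Sham Veh and 0.86 (0.61 to 1.11) for TAC TSA over TAC Veh. The others that were lower in TAC Veh were the ryanodine receptor Ryr2 and phospholamban, Pln. Apart from Cacna1c, those with higher values in TAC TSA were Ryr2, Pln, the potassium channel Kcnd2 and the sarcomere genes Mybpc3 and Ttn. Hdac4, the class IIa deacetylase under CaMKII control, was lowest in TAC TSA over TAC Veh, at −0.08 (−0.53 to 0.36).

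The additive fit called 4 of the 13 for TSA, all higher, as were 0.206% of all genes: Pln (log2 fold change 0.47, adjusted p = 0.029 in edgeR), Cacna1c (0.48, adjusted p = 0.029 in edgeR), Mybpc3 (0.57, adjusted p = 0.0011 in edgeR) and Ttn (0.58, adjusted p = 0.0045 in edgeR). It called none for surgery. The p-values hold no spread between replicates, since the fit takes its spread from departures from additivity pooled over genes. The fit also takes the effect of TSA as equal after either operation. The median of the 13 was 0.58 for TAC TSA over TAC Veh and 0.08 for Sham TSA over Sham Veh. In the sham comparison 4 of the 13 had an interval above 0, as did 5.20% of all genes, and 0 had one below. Mybpc3, which was called, was the highest of the 13 there at 0.47. The list median does not describe the called genes, and the fit does not test the arms apart. The calls are not read as a TSA effect in both arms. DESeq2 and edgeR with receptor scaling called 0 genes of the whole table for TSA, so these calls depend on the tool and the scaling. Genes were called for TSA with limma-voom and with DESeq2 size factors or loess offsets in edgeR, but which ones is not given here. With loess scaling 2 of the 13 were apart and lower in TAC Veh than in Sham Veh. In TAC TSA over TAC Veh 6 were then apart and higher (median 0.53), beside 301 of 22835 genes. With receptor scaling 7 of the 13 were apart and lower in TAC Veh than in Sham Veh, and 0 apart in TAC TSA over TAC Veh (median 0.19). In TAC TSA over Sham TSA none of the 13 was apart (median −0.02), while 10 were lower with receptor scaling. Of all genes 3.77% were lower with that scaling in TAC Veh over Sham Veh and 52.1% in TAC TSA over Sham TSA.

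These 13 genes share 4 with the 10 cardiomyocyte markers (30.8% of the substrates, and 4 of the 10 markers). The markers' summed scaled count was 4349 in TAC TSA, 2660 in TAC Veh, 4426 in Sham TSA and 3829 in Sham Veh, with no marker at 0 reads. Of the 10 markers, 5 were apart and lower in TAC Veh than in Sham Veh, as were 0.582% of all genes. In TAC TSA over TAC Veh 8 were apart, with TAC TSA higher, as were 4.06% of all genes. With receptor scaling 9 were lower in TAC Veh than in Sham Veh, beside 3.77% of all genes. In TAC TSA over TAC Veh 1 was then higher, beside 100 of 22835 genes. In TAC TSA over Sham TSA 7 were lower, beside 52.1% of all genes. With TMM scaling the 9 substrates that are no marker had medians of −0.33 for TAC Veh over Sham Veh and 0.49 for TAC TSA over TAC Veh. Of these, 1 was apart and lower in the first comparison and 2 were apart and higher in the second. For the signalling members themselves, other cell types are in view as well. The summed scaled counts were 2318, 2702, 2346 and 2213 for 12 fibroblast markers and 1813, 2152, 2206 and 1912 for 12 leukocyte markers in TAC TSA, TAC Veh, Sham TSA and Sham Veh. For 10 endothelial markers they were 5523, 5274, 5746 and 5965, and for 8 smooth muscle and pericyte markers 1765, 1959, 1751 and 1768. No marker was at 0 reads in any library. The part of cell makeup in the members' values was not tested.

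**Figure D4:**
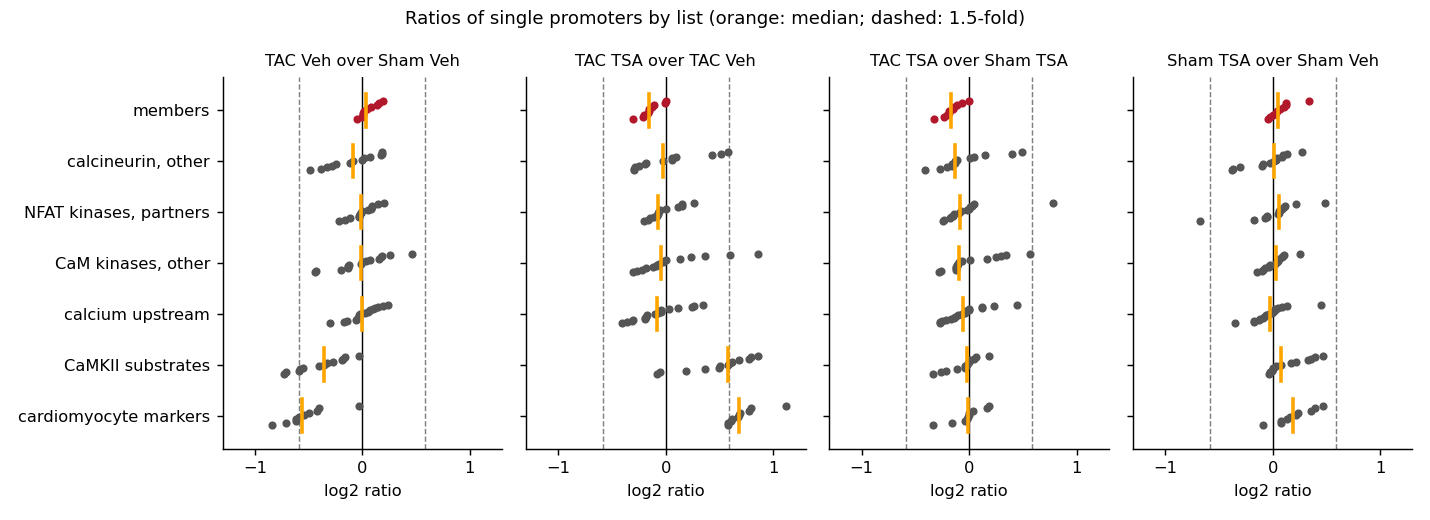
Log2 ratios of TMM-scaled counts of single promoters (points, horizontal axis) for 7 gene lists (rows) in 4 comparisons, with the list median in orange and 1.5-fold as dashed lines. The 10 members sit near 0 for TAC Veh over Sham Veh, while CaMKII substrates and cardiomyocyte markers are shifted to lower values there and to higher values in TAC TSA over TAC Veh.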

How the data were processed

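Acetylated histone H3 at promoters was sequenced in 4 left ventricle libraries, 1 per group. The authors deposited raw counts of reads at each RefSeq transcript's promoter, per the file headers. Tools named in the submitters' processing notes are MACS 1.4.1 and BWA 0.5.9, and the build is mm9. What window was counted, with which tool, and how duplicates and input were handled is not stated there. The 6 deposited region lists are in mm9 coordinates and were not used here.

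Of 31594 RefSeq IDs, 31115 (98.5%) matched a GRCm38.p6 symbol, used for names, and the 479 others (1.11% of counts) were left out. Each gene was represented by its ID with the highest mean count, and those averaging under 10 reads were dropped. Libraries were scaled by TMM (edgeR 4.0.16, R 4.3.3). Ratios carry exact conditional (Clopper-Pearson) 95% intervals, which cover counting error only. The additive fit used edgeR's quasi-likelihood test with Benjamini-Hochberg adjustment over all genes at 0.05, with limma-voom (limma 3.58.1) and DESeq2 1.42.0 as alternatives. Other alternatives were 4 scalings, the lowest-mean ID, no filter and a lower fold threshold. Python 3.11.15 was used for the rest. The method was run on simulated Poisson counts, which hold no biological or PCR spread. With 200 of 22835 genes changed 2-fold in both TAC libraries, 94.5% of them were apart in TAC Veh over Sham Veh, as were 206 of 22635 others. Changes under 2-fold were not simulated, so it does not show how often smaller ones would be found.

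The members and lists were chosen with earlier results of these data known. All members were named, and of the other pathway lists those apart or called, and otherwise the highest and lowest (also some of these in lists with genes apart). A gene that this rule names is not reported here. The rule for profiles took the 5 nearest genes to Rcan1 and to the member with the widest range.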

Additional observations from a re-analysis of the deposited data

Results flagged for a closer look

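In 2 of 10 members the surgery ratio differed between drug arms by more than counting error, as it did in the same direction for 9.14% of all genes and 16.5% of genes in the members' count range, so the count is near the background. The difference, TSA minus vehicle, was −0.34 for Nfatc2 (95% Wald interval −0.65 to −0.03), whose surgery ratio was −0.20 with TSA and 0.13 with vehicle. It was −0.25 (−0.56 to 0.05) with loess scaling and −0.29 (−0.60 to 0.02) with scaling on total counts, which both hold 0. At the Nfatc2 ID NM_001037178 the surgery ratios were 0.17 (−0.08 to 0.41) with TSA and −0.09 (−0.33 to 0.16) with vehicle. The sign of the difference was thus the opposite there. For Camk2d the difference was −0.28 (−0.48 to −0.09), with surgery ratios of −0.33 with TSA and −0.05 with vehicle. With loess scaling the Camk2d difference was −0.21 (−0.40 to −0.01). With 1 library per group, a difference between conditions was not tested.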

How the results depend on the processing

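No paired analysis was possible because each group has 1 library, and leaving out a library leaves the additive fit no residual degree of freedom. Of 240 single member ratios under other scalings, IDs or no filter, 205 stayed within their counting interval and 35 moved outside it. With receptor scaling all 10 members moved in every comparison but Sham TSA over Sham Veh. The rest that moved were Rcan1 and Nfatc2 with the lowest-mean ID, in some comparisons. Members other than Rcan1, Nfatc1 and Nfatc2 have 1 distinct count, so the ID alternative could hardly move them. The 205 is therefore no measure of how stable the ratios are. The number of members apart was 0 in every comparison under DESeq2 size factors, loess, total count, the lowest-mean ID and no filter. With receptor scaling it was 3 for TAC TSA over TAC Veh and 10 for TAC TSA over Sham TSA, and the members with an interval inside 1.5-fold, a count chosen after the data were seen, numbered 1 and 0. With a lower fold threshold 1 member was apart in TAC TSA over Sham TSA (Camk2d), and 1 for Sham TSA over Sham Veh (Nfatc2). The members whose surgery ratios differed between drug arms numbered 1 with loess, 10 with receptor and 1 with total count scaling, against 2. Over all promoters, 573, 1005, 1690 and 266 were apart for TAC Veh to Sham Veh, TAC TSA to TAC Veh, TAC TSA to Sham TSA, and Sham TSA to Sham Veh. With the lower threshold there were 1484, 2422, 3130 and 832. With receptor scaling there were 979, 3359 and 11997 in the first 3, and with loess 544 and 494 in the middle ones. The share of calls that were higher was 76.8%, 92.2% and 97.2% with TMM (133 of 266 in the last comparison), 44.9%, 55.3%, 38.3% and 52.1% with loess, and 12.2%, 2.98%, 0.850% and 38.9% with receptor scaling. The additive fit called 49 promoters for TSA and 8 for surgery, against 0 and 0 with DESeq2, 0 and 22 with receptor scaling and 4 and 2 with loess offsets. It called 0 members under every alternative. The cause of these shifts was not tested. At 257 to 1063 reads a member, the half-width of the members' 95% intervals for counting error was 0.13 to 0.23 on the log2 scale.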
